A study of Mus musculus with 8 samples.

Results

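Cyclin D1, cyclin D2, cyclin D3 and 7 further genes that control entry into the cell cycle were followed in the livers of Mfn1 LKO mice and their controls, on Illumina mouse bead arrays. The members were set by gene symbol as Ccnd1, Ccnd2, Ccnd3, Ccne1, Cdk4, Cdkn1a, Cdkn1b, Cdkn2c, Mcm2 and Top2a, and every probe that the platform annotation pairs with one of these symbols was taken. This gave 18 of 25697 probes, for 9 of the 10 genes, among 16593 genes named on the array. No probe used here carried the symbol Cdk4, the kinase partner of D-type cyclins, so Cdk4 was not analysed here.

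The comparison asks which liver transcripts differ when Mfn1, a gene for mitochondrial fusion, is lost in the liver. Livers came from 4 Mfn1 LKO mice (637, 638, 651 and 701) and from 4 control mice (641, 658, 661 and 663) whose genotype is given as Mfn1 Wildtype. All 8 mice were of strain C57Bl6/Ntac and had spent 8 weeks on high fat food before a fast of 6 hours. Each array is a different mouse, and no age is given in the sources used here. The titles of both groups name AlbCre, Cre recombinase driven by the albumin promoter of hepatocytes. Cells of the liver in which that promoter was never active would keep Mfn1. It is not known whether control mice carried Cre. In whole liver, fewer cells of a type and less RNA per cell cannot be told apart.

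Cells leave rest when growth signals raise D-type cyclins. These cyclins switch on the kinases CDK4 and CDK6, which phosphorylate the retinoblastoma protein and release E2F factors that drive cyclin E and the genes of DNA replication. CDK inhibitors of the CIP/KIP and INK4 families oppose this step. Hepatocytes of the adult liver are mostly at rest and can re-enter the cycle after injury, and cyclin D1 is known as a marker of that re-entry in mouse liver.

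Mfn1 itself checked the labels. The log2 signal of its probe ILMN_2719296 was 6.90, 6.71, 6.75 and 6.77 in Mfn1 LKO mice 637, 638, 651 and 701, against 8.36, 8.38, 8.37 and 8.32 in controls 641, 658, 661 and 663. All Mfn1 LKO livers were far below all controls, with a log2 fold change of -1.58 (limma adjusted p = 6.83e-07), and ILMN_2950837 gave -1.54 (limma adjusted p = 2.27e-06). A further, dim Mfn1 probe gave 0.012 and was not tested. Probes were tested where they lay above the median of their own array in at least 4 of 8 arrays, here called the signal filter, and these 2 Mfn1 probes were the only ones of 12755 to pass at an adjusted p under 0.05. Hepatocyte markers, with 6 of 7 above the filter and Tat below it, summed to between 40570 and 47778 in Mfn1 LKO livers and between 39106 and 43987 in controls. Most of each sum came from Ttr and Apoa1, with mean log2 signals of 14.0 in both groups. The Alb probe was dim, at percentiles 49.1 to 70.8 of its array. Median intensities lay between 96.4 and 103.9 and correlations between arrays between 0.985 and 0.995. Precision is limited by how few arrays there are.

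Of the members, Ccnd1 was the one whose signal separated the groups, and no member passed the test over all probes. Ccnd1 encodes cyclin D1. Values are log2 signals after background correction and quantile normalization, a scale that understates the change of dim probes. The brightest Ccnd1 probe (ILMN_1221503) read 9.46, 9.41, 9.82 and 9.90 in Mfn1 LKO mice 637, 638, 651 and 701, against 8.87, 9.25, 8.96 and 9.11 in controls 641, 658, 661 and 663. Every Mfn1 LKO liver lay above every control, and mice 651 and 701 were the highest. The means were 9.65 ± 0.25 in Mfn1 LKO livers and 9.05 ± 0.17 in controls (SD, n = 4 each), a log2 fold change of 0.60 (SE 0.12, 95% interval 0.33 to 0.88, limma adjusted p = 0.184), or 1.52-fold (95% interval 1.25 to 1.84).

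A second Ccnd1 probe (ILMN_2601471) gave nearly the same picture. It read 8.98, 8.99, 9.36 and 9.43 in Mfn1 LKO mice 637, 638, 651 and 701, against 8.50, 8.76, 8.54 and 8.68 in controls 641, 658, 661 and 663. The groups again did not overlap, and mice 651 and 701 were again the highest. Its log2 fold change was 0.57 (SE 0.11, 95% interval 0.31 to 0.82, limma adjusted p = 0.163). Ordered by p, these probes stood at places 41 and 48 of the 12755 probes tested. They follow 1 transcript and are not independent of each other, with a Pearson correlation of 0.996 over the 8 livers, given as a description of probes that share their target.

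The third Ccnd1 probe (ILMN_2669793) was dimmer, at percentiles 67.3 to 76.3 of its array, where the brightest lay at percentiles 91.4 to 95.4. It read 6.68, 6.90, 7.02 and 7.0 in Mfn1 LKO mice 637, 638, 651 and 701, against 6.45, 6.79, 6.71 and 6.87 in controls 641, 658, 661 and 663. Here the groups overlapped, and the log2 fold change was 0.19 (SE 0.10, 95% interval -0.033 to 0.42, limma adjusted p = 0.542). Its correlations with the bright probes over the 8 livers were lower, at 0.791 and 0.788. In the intensities as deposited, before any scaling, the brightest probe read 675, 783, 1076 and 879 in the Mfn1 LKO mice in the same order, against 479, 557, 528 and 686 in the controls. Without scaling the groups therefore overlapped, with Mfn1 LKO mouse 637 just under control 663. The second bright probe overlapped there too, at 487 in Mfn1 LKO mouse 637 and 515 in control 663. In the deposited log2 values the groups did not overlap for either bright probe.

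**Figure D1:**
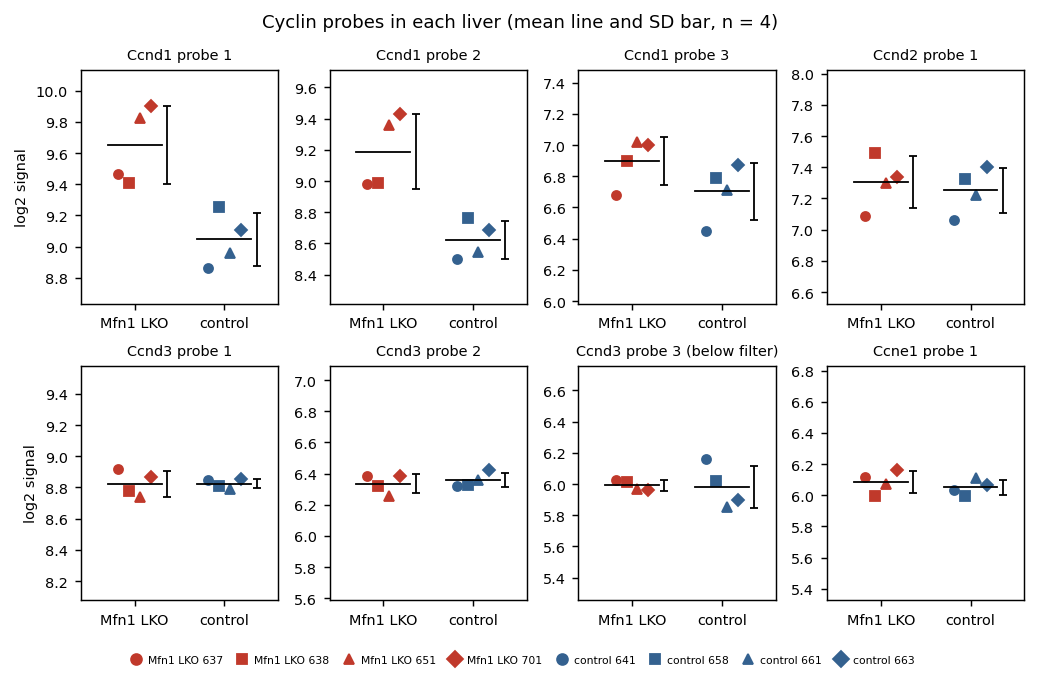
Log2 signal of the 8 cyclin probes in each liver, with Mfn1 LKO livers in red and controls in blue, the group mean as a line and the SD as a bar (n = 4 each); every panel spans the same 1.5 log2 units. For Ccnd1 probes 1 and 2 all Mfn1 LKO livers lie above all controls, whereas in the other panels the groups overlap.

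Macrophage markers were higher in the same Mfn1 LKO livers. Of 15 marker symbols on the list, which held Adgre1 also under its older name Emr1, 12 were on the array. Above the signal filter were 11, with Cd5l below it, and all 11 were higher. Their median log2 fold change was 0.35, against -0.012 over all 8815 genes. At an unadjusted p under 0.05, 6 of the 11 were higher and 0 lower, where 5.93% of all genes were higher and 4.83% lower. None passed the test over all probes (lowest limma adjusted p = 0.265). The summed signal of the 11 markers ranged over 3320 to 4919 in Mfn1 LKO livers and 2970 to 3557 in controls. The marker mean, relative to its mean over the 8 livers, was -0.11, 0.089, 0.35 and 0.41 in Mfn1 LKO mice 637, 638, 651 and 701, against -0.22, -0.0021, -0.18 and -0.33 in controls 641, 658, 661 and 663. The Mfn1 LKO livers with the highest Ccnd1, 651 and 701, thus also had the highest marker means, and mouse 637 had a marker mean below that of control 658 but a Ccnd1 signal above it. With the marker mean as a covariate the Ccnd1 log2 fold changes were 0.29 (limma adjusted p = 0.774) and 0.27 (limma adjusted p = 0.774) for the bright probes and 0.024 for the dim one. The marker mean itself was higher in Mfn1 LKO livers, by 0.37 on average. With 8 livers its part in these values cannot be told apart from that of genotype. The match with mice 651 and 701 was not particular to macrophage markers. Among Mfn1 LKO livers these mice also had the highest means of stellate cell (0.25 and 0.080) and endothelial markers (0.070 and 0.045). The same held for lymphocyte (0.038 and 0.069) and bile duct markers (0.026 and 0.077). It did not hold for neutrophil or hepatocyte markers, where mouse 651 was at -0.14 and -0.10. Which cells of the liver the Ccnd1 signal came from was not tested.

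**Figure D2:**
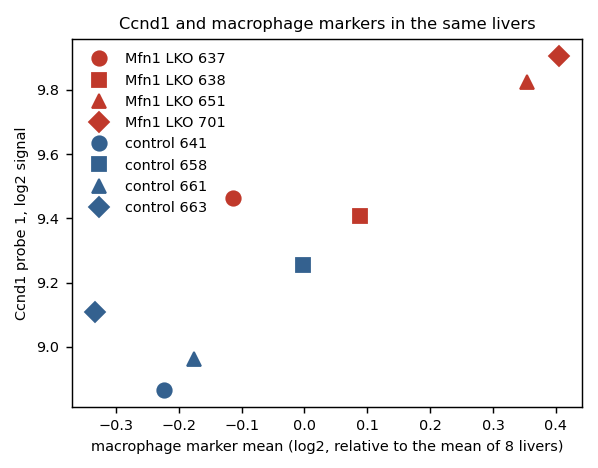
Log2 signal of the brightest Ccnd1 probe (vertical axis) against the mean of 11 macrophage markers (horizontal axis, log2 relative to the mean of the 8 livers), with 1 point for each liver, Mfn1 LKO in red and control in blue. Mfn1 LKO mice 651 and 701 are highest on both axes.

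The other D-type cyclins gave no such separation. Ccnd2 encodes cyclin D2, and its only probe (ILMN_2700166) read 7.09, 7.49, 7.30 and 7.34 in Mfn1 LKO mice 637, 638, 651 and 701, against 7.06, 7.32, 7.22 and 7.40 in controls 641, 658, 661 and 663. The groups overlapped over most of their range, and each held 1 liver, mouse 637 and control 641, well below the others. The log2 fold change was 0.054 (SE 0.096, 95% interval -0.16 to 0.27, limma adjusted p = 0.891).

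Ccnd3 encodes cyclin D3 and was the steadiest of the D-type cyclins between livers. Its bright probe (ILMN_3131063) read 8.92, 8.78, 8.74 and 8.87 in Mfn1 LKO mice 637, 638, 651 and 701, against 8.85, 8.81, 8.79 and 8.85 in controls 641, 658, 661 and 663. The controls lay inside the range of the Mfn1 LKO livers, and the means were 8.82 ± 0.084 in Mfn1 LKO livers and 8.83 ± 0.032 in controls (SD, n = 4 each). The 95% interval of the log2 fold change, -0.12 to 0.12, does not reach the value of either bright Ccnd1 probe (limma adjusted p = 0.998). A dimmer Ccnd3 probe (ILMN_1246473) gave -0.024, and ILMN_2661849, below the signal filter, gave 0.0085 with no test.

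Ccne1 encodes cyclin E1, the partner of CDK2 that acts after the D-type cyclins. Its probe (ILMN_2716497) read 6.11, 6.0, 6.07 and 6.16 in Mfn1 LKO mice 637, 638, 651 and 701, against 6.04, 6.0, 6.11 and 6.06 in controls 641, 658, 661 and 663. The groups overlapped, and all livers stayed near the median of all probes, 6.02, where the lowest signal was 5.65. The log2 fold change was 0.033 (95% interval -0.086 to 0.15, limma adjusted p = 0.875). At so low a signal, a narrow interval sets no limit on how far the transcript itself changed, and that holds also for Cdkn1b, Top2a and the dim probes of Cdkn1a and Cdkn2c below.

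Among the CDK inhibitors, Cdkn1a varied most between mice, in both groups. Cdkn1a encodes p21, a CIP/KIP inhibitor and a target of p53. Its brightest probe (ILMN_2634083) read 7.21, 7.21, 7.92 and 7.02 in Mfn1 LKO mice 637, 638, 651 and 701, against 7.34, 7.20, 7.0 and 7.64 in controls 641, 658, 661 and 663. The highest livers were Mfn1 LKO mouse 651 and control 663, and the groups overlapped throughout. The SD was 0.40 in Mfn1 LKO livers and 0.27 in controls, and the log2 fold change of 0.047 (SE 0.19, 95% interval -0.38 to 0.47, limma adjusted p = 0.960) was smaller than either.

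The second Cdkn1a probe (ILMN_2846775) picked out the same livers, with 6.97 in Mfn1 LKO mouse 651 and 6.76 in control 663, where the other livers lay between 6.43 and 6.57. Its correlation with the brightest probe over the 8 livers was 0.985, a description of probes of 1 transcript. Its log2 fold change was 0.058, and that of the third probe (ILMN_2846776) was 0.037. The third probe, which was dim, correlated less with the others, at 0.624 and 0.651. It was highest in Mfn1 LKO mice 637 (6.22) and 651 (6.21). Without mouse 651 the values of all Cdkn1a probes were below 0, at -0.15, -0.056 and -0.0038.

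Cdkn1b encodes p27, the CIP/KIP inhibitor linked to resting cells. Only 1 of its 3 probes (ILMN_2638428) was above the signal filter, and it read 6.01, 5.95, 6.05 and 6.03 in Mfn1 LKO mice 637, 638, 651 and 701, against 5.95, 6.05, 6.09 and 6.10 in controls 641, 658, 661 and 663. The livers overlapped within a narrow band, with a log2 fold change of -0.036 (95% interval -0.15 to 0.080, limma adjusted p = 0.861). The other probes, below the filter and not tested, gave -0.022 and -0.011.

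Cdkn2c encodes p18, an INK4 inhibitor that binds CDK4 and CDK6. Its brighter probe (ILMN_1228366) read 6.70, 6.50, 6.76 and 6.80 in Mfn1 LKO mice 637, 638, 651 and 701, against 6.77, 6.72, 6.73 and 6.87 in controls 641, 658, 661 and 663. Mouse 638 was the lowest of all, and the groups overlapped otherwise. The log2 fold change was -0.084 (SE 0.072, 95% interval -0.25 to 0.077, limma adjusted p = 0.731), and -0.021 without mouse 638. The dimmer probe (ILMN_1215651) gave 0.034.

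**Figure D3:**
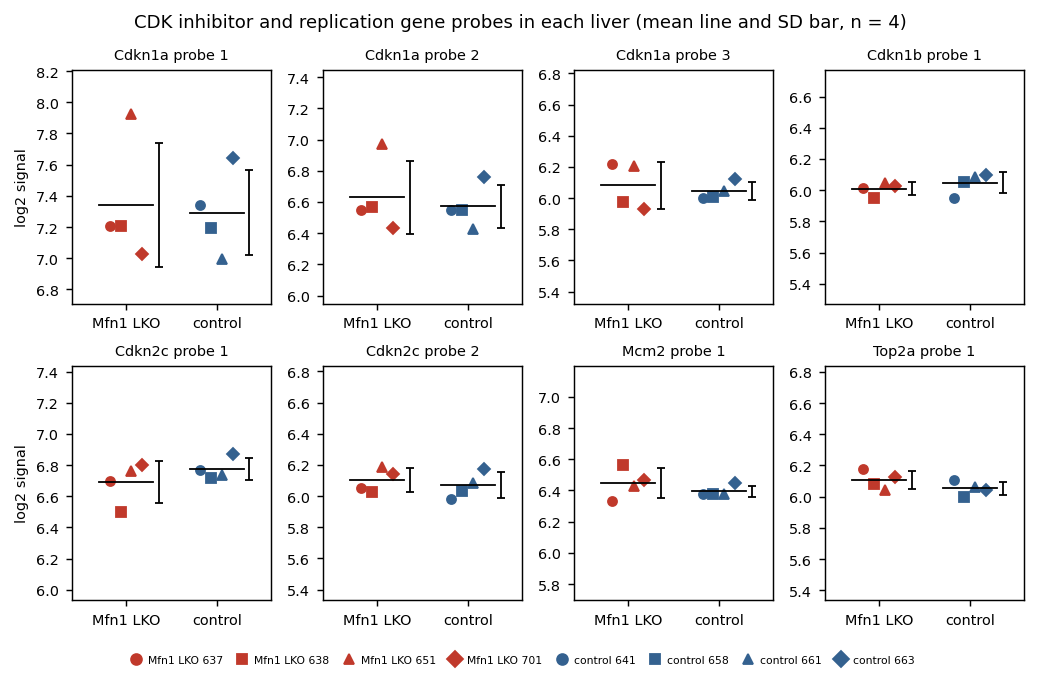
Log2 signal of the 8 probes of CDK inhibitors and replication genes that were above the signal filter, in each liver, with Mfn1 LKO in red and control in blue, the mean as a line and the SD as a bar (n = 4 each); every panel spans the same 1.5 log2 units. The groups overlap in every panel, and Mfn1 LKO mouse 651 and control 663 are the highest livers for Cdkn1a probes 1 and 2.

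Mcm2 and Top2a report on cells that replicate and divide. Mcm2 encodes a subunit of the MCM helicase that licenses replication origins, and Top2a encodes topoisomerase II alpha, which untangles chromosomes and is high from S phase to mitosis. Their promoter sequences are shown because both genes are classic cell cycle transcripts, so that their letters can be set beside the motifs searched. The sequences are from RefSeq (build GRCm38.p6), run 5′ to 3′ on the strand of the gene, and cover 250 bases before the start of transcription and 50 from it on. Capitals mark CHR elements (TTTGAA or TTTAAA), GC boxes (GGGCGG) and CCAAT boxes (CCAAT), each on either strand.
Mcm2, chr6:88898731-88899030, minus strand: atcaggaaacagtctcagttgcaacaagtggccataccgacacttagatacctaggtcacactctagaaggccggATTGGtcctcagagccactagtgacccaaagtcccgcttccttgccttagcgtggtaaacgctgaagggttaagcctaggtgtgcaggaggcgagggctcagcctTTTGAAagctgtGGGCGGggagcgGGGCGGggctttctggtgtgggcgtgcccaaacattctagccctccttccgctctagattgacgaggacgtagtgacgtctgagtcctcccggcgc
Top2a, chr11:99024140-99024439, minus strand: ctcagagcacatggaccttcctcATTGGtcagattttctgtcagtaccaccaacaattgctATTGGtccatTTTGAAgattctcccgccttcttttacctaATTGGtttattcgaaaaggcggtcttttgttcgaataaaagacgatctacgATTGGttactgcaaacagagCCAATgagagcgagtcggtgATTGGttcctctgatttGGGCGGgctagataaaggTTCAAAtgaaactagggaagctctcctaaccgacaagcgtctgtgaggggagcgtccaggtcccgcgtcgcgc

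The Top2a window held 6 CCAAT boxes, a number reached by 0.0791% of the 32851 windows of the table, and 2 CHR elements, a number reached by 6.37%, of which 1 lay at bases -23 to -18. The Mcm2 window held 1 CHR element at bases -70 to -65, 1 CCAAT box and 2 GC boxes, a number of GC boxes reached by 19.5% of windows. No capitals overlap in either window. Of all windows 37.4% held a CCAAT box, 27.6% a CHR element and 35.7% a GC box. No member window held the E2F letters searched (TTTCGCGC or TTTGGCGC, found in 0.813% of all windows) or the CRE letters (TGACGTCA, found in 1.79%). With letters this rare and 11 member windows, finding none does not show that these promoters lack such sites. Windows were found for 8 of the 10 members, and those of Ccnd1 and Ccnd2 were not among them. A match is a description of letters and was not tied to any signal.

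Neither replication gene separated the groups. Mcm2 (ILMN_1250907) read 6.33, 6.56, 6.43 and 6.47 in Mfn1 LKO mice 637, 638, 651 and 701, against 6.38, 6.38, 6.38 and 6.44 in controls 641, 658, 661 and 663. Mouse 638 was the highest and mouse 637 the lowest, with the controls between them, and the log2 fold change was 0.055 (SE 0.058, 95% interval -0.074 to 0.18, limma adjusted p = 0.796). It was 0.016 without mouse 638 and 0.094 without mouse 637. The Mcm2 probe was dim, at percentiles 64.7 to 69.6 of its array, so its interval sets no firm limit on the transcript. Top2a (ILMN_2830661) read 6.18, 6.08, 6.04 and 6.13 in the same Mfn1 LKO mice, against 6.11, 6.0, 6.06 and 6.04 in the controls. Its livers overlapped near the median of all probes, and the log2 fold change was 0.053 (SE 0.051, 95% interval -0.061 to 0.17, limma adjusted p = 0.771).

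Of the members' probes, 15 of 18 were above the signal filter and were tested, and none had an adjusted p under 0.05, where 2 of the 12755 probes tested (0.0157%) did. Of the 15, 2 had an unadjusted p under 0.05 on the higher side (13.3%, against 6.04% of all probes), and the same 2 were those whose groups did not overlap on the higher side (13.3%, against 3.07% of all probes). Both belong to Ccnd1, so these shares rest on 1 gene. The median log2 fold change was 0.047 over the 15 member probes and -0.012 over all probes tested. Leaving Ccnd1 aside, the other 12 tested probes had log2 fold changes between -0.084 and 0.058, and their lowest limma adjusted p was 0.731.

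**Figure D4:**
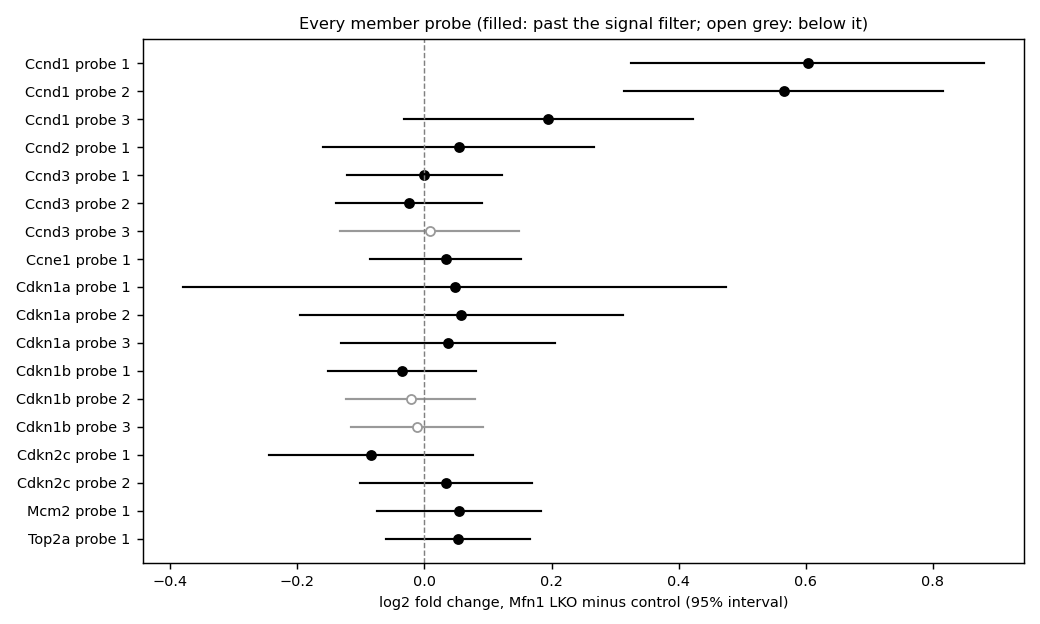
Log2 fold change of each of the 18 member probes, Mfn1 LKO minus control, with its 95% interval; filled points were above the signal filter and open grey points below it. The intervals of Ccnd1 probes 1 and 2 lie above 0, and those of all other probes cross 0.

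The wider cell cycle was read from 5 lists of other genes. They named 165 genes, of which 145 were on the array and 101 above the signal filter, and none of the 101 passed the test over all probes (lowest limma adjusted p = 0.290). At an unadjusted p under 0.05 there were 4 on the higher side, where 5.93% of the 8815 genes were, and 4 on the lower side, where 4.83% were. Groups did not overlap for 3 of the 101 on the higher side and 2 on the lower, against 2.92% and 3.2% of the 8815 genes. Once the mean of the macrophage markers was a covariate, several of the genes named below were nearer 0, at 0.088 for Ctnnb1, 0.047 for Rfc4, 0.15 for Mcm4, -0.17 for Trp53inp1, -0.091 for Mdm2 and -0.073 for Yap1. Others were farther from 0, at -0.17 for E2f1, -0.23 for E2f6 and -0.21 for Fbxo4. The marker mean differed between the groups, so its part in these shifts cannot be told apart from that of genotype.

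Of 39 DNA replication genes on the array 34 were above the filter, 19 higher and 15 lower, with a median log2 fold change of 0.016 against -0.012 over all genes. The 3 with the smallest p were Mcm4, another helicase subunit, Pcna, the sliding clamp of the polymerases, and Rfc4, a subunit of the clamp loader. Mcm4 read 7.79, 7.98, 7.89 and 8.19 in Mfn1 LKO mice 637, 638, 651 and 701, against 7.75, 7.62, 7.71 and 7.70 in controls 641, 658, 661 and 663. Its groups did not overlap, with a log2 fold change of 0.27 (SE 0.080, limma adjusted p = 0.290). Pcna, a dim probe at percentiles 45.8 to 61.4 of its array, gave 0.13 (limma adjusted p = 0.390). Rfc4 gave 0.16 (limma adjusted p = 0.412), and the groups overlapped in neither gene. These were the 3 of 34 genes whose groups did not overlap on the higher side, where 2.92% of all 8815 genes did, and none did so on the lower side, where 3.2% did. The largest difference in the list was lower, in Mcm10, a replication initiation factor named here after its value was seen. It read 10.90, 10.95, 10.23 and 10.67 in Mfn1 LKO mice 637, 638, 651 and 701, against 11.12, 10.87, 11.05 and 10.96 in controls 641, 658, 661 and 663. Its groups overlapped, with a log2 fold change of -0.31 (limma adjusted p = 0.472). The Mcm10 probe was the brightest of the 34, at percentiles 96.3 to 98.0, and whether it reads only Mcm10 was not tested.

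Mitosis genes were mostly too dim to follow. Of 34 on the array 19 were below the filter, among them Ccnb2, Kif11 and Tpx2, and of the 15 above it 5 were higher and 10 lower, with a median of -0.010. Those with the smallest p were Nusap1, a spindle protein (0.13, limma adjusted p = 0.558), Mad2l1, a spindle checkpoint protein (0.09, limma adjusted p = 0.698), and Cdca3 (-0.095, limma adjusted p = 0.698). In each of them the groups overlapped.

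The list of G1 and S entry, which holds CDK2, CDK6, the E2F factors, the retinoblastoma family and their partners, had 20 of 27 genes above the filter, 8 higher and 12 lower, with a median of -0.0068. Skp2, which marks p27 for destruction, gave 0.086 (limma adjusted p = 0.563), E2f1 gave -0.096 (limma adjusted p = 0.584) and E2f6, a repressing member of the E2F family, gave -0.14 (limma adjusted p = 0.587). The cyclins Ccne2 and Ccna2 were below the filter.

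Targets of p53 and checkpoint genes had 16 of 23 genes above the filter, 5 higher and 11 lower, with a median of -0.035. Trp53inp1, a p53-induced nuclear protein, gave -0.30 (limma adjusted p = 0.345), and Mdm2, the ligase that degrades p53, gave -0.18 (limma adjusted p = 0.419). Sesn2, a stress-induced sestrin with a dim probe (percentiles 49.8 to 63.3), gave -0.12 (limma adjusted p = 0.455). It was the only 1 of the 16 genes whose groups did not overlap on the lower side, where 3.2% of all 8815 genes did. None did so on the higher side, where 2.92% did. Cdkn1a, also a p53 target, gave 0.047 as described above.

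Inputs to D-type cyclins, from growth factor receptors to kinases and transcription factors, had 16 of 22 genes above the filter, 8 on each side, with a median of -0.0069. Yap1, the transcriptional coactivator of the Hippo pathway, read 7.39, 7.24, 7.19 and 7.27 in Mfn1 LKO mice 637, 638, 651 and 701, against 7.40, 7.40, 7.49 and 7.41 in controls 641, 658, 661 and 663, with every Mfn1 LKO liver below every control. The margin was very small, with Mfn1 LKO mouse 637 at 7.395 and control 658 at 7.396. The log2 fold change of Yap1 was -0.15 (SE 0.057, limma adjusted p = 0.377). Yap1 was the only 1 of the 16 genes without overlap on the lower side, against 3.2% of all 8815 genes. None was without overlap on the higher side, against 2.92%. Ctnnb1, which encodes beta-catenin, a transcription partner in Wnt signalling, gave 0.30 (limma adjusted p = 0.433), and Fbxo4, an F-box protein reported to target cyclin D1, gave -0.094 (limma adjusted p = 0.631). Myc was below the filter.

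**Figure D5:**
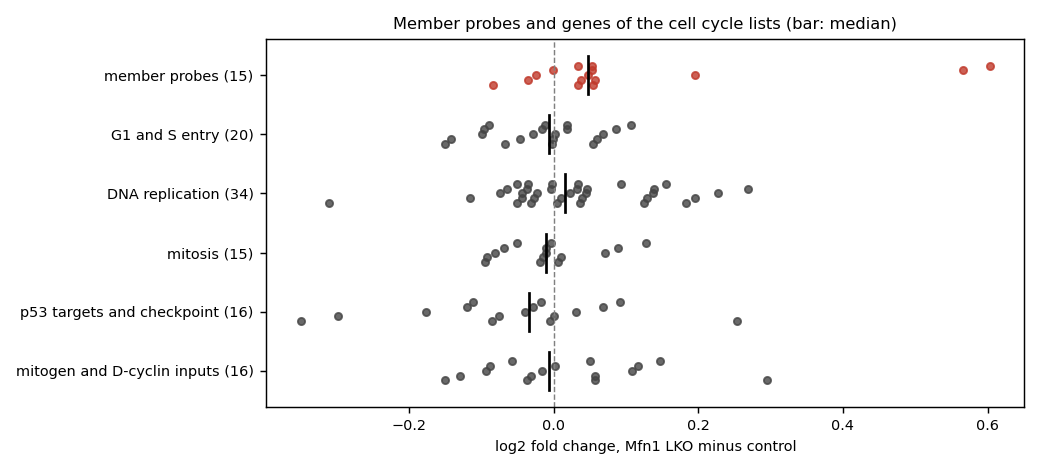
Log2 fold change, Mfn1 LKO minus control, of the 15 tested member probes (red) and of the genes of 5 cell cycle lists (grey, number of genes in brackets), with the median as a bar. The 2 red points near 0.6 are the bright Ccnd1 probes, and the medians of the lists lie between -0.035 and 0.016.

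The genes whose log2 signal over the 8 livers was most like that of each D-type cyclin were sought among 8678 named genes. For Ccnd1 these were Dennd2d (Pearson r = 0.981), Mfng (r = 0.933) and Kcnj8 (r = 0.930), whose own log2 fold changes were 0.21, 0.12 and 0.15. For Ccnd2 they were Ociad2 (r = 0.963), Nup93 (r = 0.938) and Ptpn22 (r = 0.937), and for Ccnd3 Mrpl3 (r = 0.974), Apip (r = 0.971) and Wdr45b (r = 0.936). None of these 9 genes passed the test. The highest of so many correlations over 8 livers is large by selection, and the livers share normalization, so the values are given only as a description.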

How the data were processed

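Total RNA of 8 livers was amplified with an Illumina TotalPrep kit, per the labels. The deposited tables give, for 25697 probes, an intensity on a linear scale without detection p-values, and log2 values of the same arrays, which lay within 0.0066 of quantile normalized log2 intensities. How either table was made is not given in the sources used here. Groups came from the titles. Nothing pairs the mice, no slide or date is given, and p-values measure the spread between mice.

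Background was removed by normexp with an offset of 50, followed by quantile normalization and log2. The signal filter asked for 4 or more of 8 arrays over the array median and left 12755 probes. They were tested in limma 3.58.1 under R 4.3.3 (lmFit, then eBayes; two-sided), with Benjamini-Hochberg adjustment over all of them and a threshold of 0.05. Genes were fitted probe by probe; list genes are given by their brightest tested probe, 8815 genes in all. Symbols came from GEO's platform annotation (23978 probes named, 1719 unnamed, none with several symbols), and 23962 matched a RefSeq table by gene ID with no symbol changed. Signal sums are of normalized linear signal.

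Alternatives varied the background correction, scaling, filter, probe choice, variance model, a macrophage covariate and the mice included. neqc could not be run without detection p-values. The members, lists and alternatives were chosen with earlier results of these data known. Named genes were the members, Mfn1, the 3 genes of each list with the smallest p and the 3 most like each D-type cyclin; others were named after their values were seen. The test was tried on simulated data. Figures used matplotlib 3.10.9 in Python 3.11.15.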

Additional observations from a re-analysis of the deposited data

Results flagged for a closer look

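In 72 groups of 4 livers, from 36 named probes, 3 held 1 liver far from the others by Dixon's ratio, where chance gives about 1 in 20 groups. Control 663 read 6.44 for Mcm2, while the other controls lay at 6.38. Control 661 read 7.49 for Yap1, above the 7.40 to 7.41 of the other controls. Mfn1 LKO mouse 701 read 5.68 for the dim Mfn1 probe ILMN_1232014, below the 5.86 to 5.87 of the other Mfn1 LKO livers.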

How the results depend on the processing

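Of 21 alternatives, 8 left out 1 mouse each and 13 changed the processing. Under all of them 0 member probes and 0 genes of the cell cycle lists passed. The number of all probes that passed was 1 with the brightest probe of each gene (fewer probes tested) and 4 with limma-trend and robust estimation, which added Usp18 and Ndufb5. It lay between 2 and 4 with 1 mouse left out, with 4 without Mfn1 LKO mouse 701, where Bhmt and Ndufb5 were added, and 3 without control 661, where Usp18 was. Ndufb5 also passed with no filter and with array weights, giving 3. The bright Ccnd1 probes stayed on the higher side in every setting, from 0.29 (macrophage covariate) to 0.68 for the first and 0.27 to 0.64 for the second, with adjusted p between 0.127 and 1.00 by limma. The dim Ccnd1 probe lay between 0.024 and 0.28. Values that changed sign were small. With the macrophage covariate Ccnd2 was -0.027, the Ccnd3 probes 0.058 and 0.024, the dim Cdkn2c probe -0.0060 and Nusap1 -0.026. The bright Ccnd3 probe was 0.0085 with a common median, 0.017 with cyclic loess and 0.016 with no scaling, an alternative chosen after seeing the data. With 1 mouse left out Ccnd2 lay between -0.010 and 0.13, the Ccnd3 probes between -0.032 and 0.029 and between -0.040 and 0.0029, and the Cdkn1a probes between -0.15 and 0.16, -0.056 and 0.12, and -0.0076 and 0.088. The cause was not tested. The other 637 of 657 gene values kept their sign and side of the threshold, though not their size. With 1 mouse left out Ccne1 lay between 0.0080 and 0.063, the tested Cdkn1b probe between -0.068 and -0.016, the Cdkn2c probes between -0.12 and -0.021 and between 0.0050 and 0.070, Mcm2 between 0.016 and 0.094 and Top2a between 0.029 and 0.074. With the macrophage covariate Top2a was 0.11 and the brighter Cdkn2c probe -0.13. No paired analysis was possible because nothing in the labels pairs the mice. Dim probes, near the lowest signal of 5.65, limit what can be said of Ccne1, Cdkn1b, Top2a, Pcna, Sesn2, Skp2 and Nusap1. The Mcm2 probe was only somewhat brighter.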

Other observations

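The promoter window of Cdk4, the member with no probe here, held 4 E-boxes (CACGTG, the site of MYC and related factors), a number reached by 0.0244% of the 32851 windows in the RefSeq table (build GRCm38.p6), and 7.15% of windows held at least 1. The Ccne1 window held 4 GC boxes, a number reached by 5.49% of windows. These are counts of letters, and Cdk4 was not measured.

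Markers of further cell types gave the following counts. Neutrophil markers were higher for all 5 tested genes, with Mpo and Ngp below the filter. Retnlg gave only 0.0006 and Elane 0.012, and none of the 5 had an unadjusted p under 0.05 by limma. Summed signals lay between 391 and 1403 in Mfn1 LKO livers and between 387 and 838 in controls. The marker mean was highest in Mfn1 LKO mouse 701, at 0.78, followed by control 658, at 0.34. It was 0.19 in Mfn1 LKO mouse 638 but -0.37 and -0.14 in mice 637 and 651. The other controls lay between -0.39 and -0.18. Lymphocyte markers were higher for 4 of 5, with 5 others below the filter, endothelial markers for 4 of 8 and stellate cell markers for 5 of 8. Of the bile duct markers Sox9 gave 0.15 and Krt7 -0.11, and Krt19 and Cftr were below the filter. None passed the test over all probes by limma.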
